A study of Mus musculus with 14 samples.

Results

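MicroRNAs (miRNAs) known as products of endothelial, stromal or muscle cells were followed in the small extracellular vesicles, membrane-bound particles, shed by mouse neutrophils. They are the endothelial mmu-miR-126a-3p and mmu-miR-126a-5p, the stromal and smooth muscle mmu-miR-143-3p, mmu-miR-145a-5p, mmu-miR-199a-3p, mmu-miR-199a-5p and mmu-miR-214-3p, and the striated muscle mmu-miR-1a-3p, mmu-miR-133a-3p and mmu-miR-206-3p, written below without the species prefix. They were taken by exact name from the 1695 mature names of the deposited count table, and 10 of 10 were present. Together they held 8700 counts, a mean of 0.243% ± 0.0698 (SD, n = 7) of a library's counts with DMSO and 0.245% ± 0.0990 (SD, n = 7) with 27HC.

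The vesicles came from primary Ly6G+ cells, Ly6G being the usual surface marker of mouse neutrophils, of the marrow of female BALB/c mice (WT). For 7 libraries the culture held DMSO, the solvent, over 48 h, and for the other 7 it held 10 µM 27HC (27-hydroxycholesterol, a cholesterol metabolite). Strain, sex, tissue, cell selection, time and vesicle isolation were the same in both groups, and the age of the mice is not given in the sources used here. The libraries are numbered 1 to 7 in each group, and each also carries a pair of consecutive numbers whose meaning the labels do not state. The labels do not say that the libraries came from separate animals or cultures, so p-values measure the spread between these libraries, which may be technical. The labelled cell type was checked on miR-223 and miR-142a, miRNAs typical of myeloid and other blood cells: their 4 arms held between 9.86% and 18.2% of the counts in every library.

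A mature miRNA is a short RNA cut from a hairpin, and it represses messenger RNAs that pair with its seed, the bases 2 to 8. The hairpin of miR-126 lies in Egfl7, a gene of endothelial cells, and miR-126 is known from vascular integrity and also from haematopoietic stem cells and platelets. The miR-143 and miR-145 hairpins are transcribed together and mark smooth muscle and fibroblasts. The miR-199a and miR-214 hairpins share the noncoding transcript Dnm3os, which mesenchymal cells express. The miRNAs miR-1 and miR-133a mark cardiac and skeletal muscle, and miR-206, which has the seed of miR-1, marks skeletal muscle. In a neutrophil preparation such miRNAs can serve as a rough gauge of RNA from other sources, since none of them is known as a typical product of the neutrophil. No library was of neutrophil cells or of culture medium alone, so the source of these miRNAs was not tested.

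The sequences below are shown because they set what the counts can separate, and because miR-206-3p carried the widest spread described below. They come from RefSeq (build GRCm38.p6), run 5′ to 3′ and have the seed in capitals. Of the 10 miRNAs, 5 were matched to a mature sequence by name, and miR-126a-5p, miR-143-3p, miR-145a-5p, miR-1a-3p and miR-133a-3p were not.
miR-126a-3p: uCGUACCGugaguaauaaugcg
miR-126b-3p: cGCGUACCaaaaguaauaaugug
miR-199a-3p: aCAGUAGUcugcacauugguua
miR-199b-3p: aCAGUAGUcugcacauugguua
miR-214-3p: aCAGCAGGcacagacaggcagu
miR-206-3p: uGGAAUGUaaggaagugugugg
miR-133b-3p: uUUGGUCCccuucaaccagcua

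miR-126a-3p lies at chr2:26591402-26591423 on the plus strand. Its hairpin is in Egfl7, within an exon of a retained-intron transcript and an intron of the other transcripts. miR-126b-3p lies at chr2:26591363-26591385 on the minus strand, and its reverse complement is found inside the Mir126a hairpin, on the side opposite miR-126a-3p. miR-199a-3p comes from chr1:162217883-162217904 (plus strand, in an exon of Dnm3os, opposite to an intron of Dnm3) and from chr9:21496498-21496519 (minus strand, opposite to an intron of Dnm2). miR-199b-3p, at chr2:32318524-32318545 (plus strand, opposite to an intron of Dnm1), has exactly the same letters. miR-214-3p, at chr1:162223438-162223459 (plus strand), is in an exon of the same Dnm3os. miR-206-3p lies at chr1:20679055-20679076 (plus strand), in an intron of the noncoding transcript Gm28653, and miR-133b-3p, another skeletal muscle miRNA, lies on the same strand at chr1:20682834-20682855. All of these positions are from the annotation, since the counts carry none.

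The table cannot separate some of these names. miR-199a-3p and miR-199b-3p had the same count in 14 of 14 libraries, 2054 in all, so each value below is that of either. miR-126a-5p and miR-126b-3p, which are known to come from opposite strands of the same stretch, were equal in 9 of 14 libraries and never differed by more than 4 counts, with totals of 1295 and 1304. Their reads cannot be told apart here. miR-1a-3p and miR-1b-5p had equal counts in 0 libraries, with totals of 1926 and 505.

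Library totals ran from 112914 to 871189 counts. Libraries with replicate numbers 5 to 7 held 112914 to 252014 counts and those numbered 1 to 4 held 229324 to 871189. Levels are given in counts per 1000000 (CPM) on TMM library sizes. A count of 3, the limit that a count of 0 allows, was worth between 3.44 and 26.6 counts per 1000000 of the raw library total, before TMM scaling. All 42 pairs of libraries within a group differed beyond sampling noise (chi-square per degree of freedom at least 5.485), so each counted as a library of its own. Of the 1695 names, 239 had enough counts to be tested, and these held 99.4% of all counts. A name was called when its Benjamini-Hochberg adjusted p from edgeR's quasi-likelihood test was under 0.05.

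Mature miRNAs are of nearly equal length, so their CPM levels were ordered without a length correction. Over the 14 libraries the highest median level among the 10 was that of miR-199a-3p, at 589 CPM. Then came miR-1a-3p with 514 CPM, miR-126a-3p with 416 CPM and miR-126a-5p with 327 CPM. miR-143-3p was lower, at 148.5 CPM. The other 5 had medians of 48.1 CPM (miR-133a-3p), 38.9 CPM (miR-206-3p), 33.9 CPM (miR-214-3p), 33.5 CPM (miR-199a-5p) and 31.7 CPM (miR-145a-5p), near the level of 3 counts in the shallowest libraries. The ranges of every pair of neighbours in this order overlapped. miR-199a-3p, miR-1a-3p, miR-126a-3p and miR-126a-5p held 23.6%, 22.1%, 19.6% and 14.9% of the counts of the 10. No miRNA of the 10 was at 0 in any library.

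**Figure D1:**
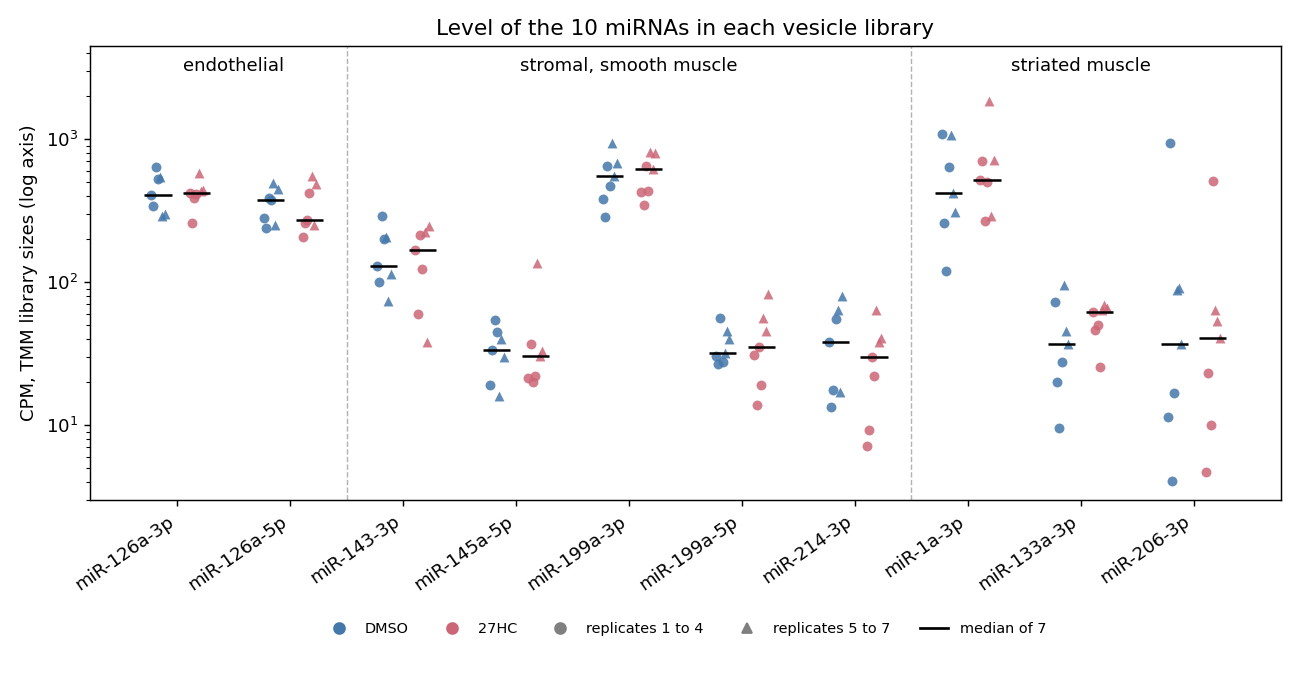
Level of each of the 10 miRNAs in each of the 14 libraries, in CPM on a log axis; colour gives the treatment, circles are replicates 1 to 4, triangles replicates 5 to 7, and the bar is the median of 7. The colours overlap for every miRNA, and miR-206-3p has a library with DMSO at 938 CPM and a library with 27HC at 509 CPM far above the other 12.

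The first question was whether these miRNAs differed between the vesicles of 27HC-treated and DMSO-treated cells. None of the 7 that passed the filter on low counts was called: 0 of 7, where 12.6% of all tested names (30 of 239; 9 or 3.77% higher and 21 or 8.79% lower with 27HC) were called. No member of the 7 had an unadjusted p under 0.05 either, against 53 of the 239 names, and DESeq2 and limma-voom also called 0 of the 7, with 32 and 27 of the 239 names. The median log2 fold change of the 7, 27HC minus DMSO, was -0.02, against 0.01 over all tested names, and 4 of the 7 lay within 0.1 of no change, as did 25.5% of all tested names. The groups did not separate without overlap for any of the 10, as they did for 5.44% of tested names.

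Of the endothelial miRNAs, miR-126a-3p, the strand that represses inhibitors of vascular growth factor signalling, ran with DMSO from 290 CPM over a median of 406 to 638. With 27HC it ran from 260 over 419 to 577 CPM. The groups covered nearly the same range. Group means were 436 ± 136 and 420 ± 93.2 CPM (SD, n = 7 each), a log2 fold change of -0.06 (SE 0.21, 95% interval -0.50 to 0.38, edgeR adjusted p 0.927).

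miR-126a-5p, the strand from the other side of the hairpin, ran from 239 over 373 to 497 CPM with DMSO and from 208.2 over 274.5 to 553 CPM with 27HC. The median was lower with 27HC, but the 27HC range enclosed the DMSO range. Its log2 fold change was -0.02 (SE 0.25, 95% interval -0.54 to 0.50, edgeR adjusted p 0.980). For these miRNAs the intervals leave room for a fold of 0.706 to 1.3 (miR-126a-3p) and 0.687 to 1.42 (miR-126a-5p). In bulk vesicle RNA, fewer vesicles from cells of a type and less of the miRNA per vesicle cannot be told apart.

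Of the stromal miRNAs, miR-199a-3p ran from 286 over 557.5 to 938 CPM with DMSO and from 348 over 619.7 to 809.7 CPM with 27HC. The 27HC libraries all lay inside the DMSO range. Its log2 fold change was 0.04 (SE 0.26, 95% interval -0.50 to 0.58, edgeR adjusted p 0.966). miR-143-3p, which is best known from smooth muscle, ran from 73.95 over 129 to 289 CPM with DMSO and from 38.25 over 168 to 246 CPM with 27HC. Its lowest library had 27HC and its highest had DMSO, and the log2 fold change was -0.07 (SE 0.39, 95% interval -0.90 to 0.75, edgeR adjusted p 0.954).

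The other 3 stromal names did not pass the filter, which asked for about 41.2 counts per 1000000 of the raw library total, before TMM scaling, in 7 libraries: miR-199a-5p reached it in 6, miR-214-3p in 5 and miR-145a-5p in 3. miR-145a-5p, the partner of miR-143 in smooth muscle, had 2 to 40 counts a library and ranged from 16.0 to 54.5 CPM with DMSO and from 19.96 to 136 CPM with 27HC. The 136 CPM stood on 17 counts in the library numbered 5. miR-199a-5p had 3 to 41 counts a library and ranged from 26.9 to 55.9 CPM with DMSO and from 13.9 to 82.0 CPM with 27HC. miR-214-3p had 2 to 24 counts a library, with ranges of 13.45 to 80.5 and 7.10 to 64.1 CPM. All 3 overlapped between the groups. In a fit of all 1695 names without the filter, their log2 fold changes were 0.02 (SE 0.49), -0.11 (SE 0.47) and -0.56 (SE 0.50), with edgeR adjusted p of 0.985, 0.951 and 0.623.

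Of the muscle miRNAs, miR-1a-3p, which restrains proliferation in cardiac and skeletal muscle, ran from 120.0 over 421 to 1089 CPM with DMSO. With 27HC it ran from 269.5 over 523 to 1844 CPM. The 1844 CPM was the library numbered 5, and the next highest 27HC library had 722 CPM. The log2 fold change was 0.32 (SE 0.49, 95% interval -0.72 to 1.36, edgeR adjusted p 0.818), and it was -0.09 without that library.

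miR-133a-3p, which is transcribed together with miR-1, ran from 9.54 over 36.9 to 96.2 CPM with DMSO and from 25.3 over 61.5 to 68.85 CPM with 27HC. It stood on 6 to 26 counts a library. Its lowest and highest libraries both had DMSO, and its log2 fold change was 0.39 (SE 0.43, 95% interval -0.52 to 1.30, edgeR adjusted p 0.672).

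miR-206-3p, the miRNA most restricted to skeletal muscle among the 10, ran from 4.09 over 36.9 to 938 CPM with DMSO and from 4.73 over 41.0 to 509 CPM with 27HC. Its group means were 169.5 ± 341 and 100.8 ± 181 CPM (SD, n = 7 each), so the SD exceeded the mean in both. The log2 fold change was -0.69 (SE 1.09, 95% interval -3.01 to 1.63, edgeR adjusted p 0.818). It was 1.54 without DMSO replicate 2 and -2.44 without 27HC replicate 4, so a single library set its direction. The interval is the widest of the 7 and runs from a fold of 0.124 to a fold of 3.1.

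**Figure D2:**
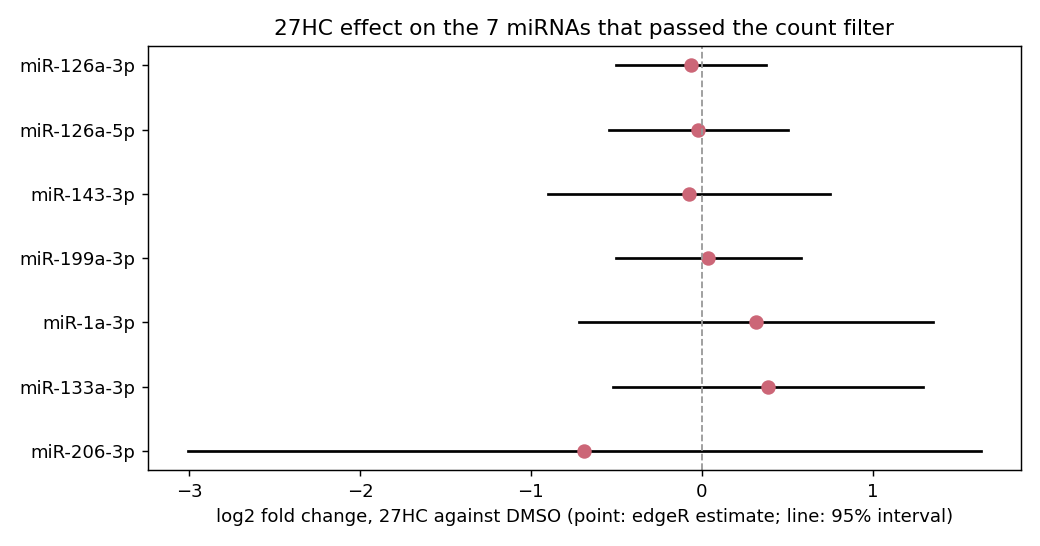
Log2 fold change of 27HC against DMSO for the 7 miRNAs that passed the filter (points, edgeR estimates; lines, 95% intervals; dashed line, no change). All 7 intervals cross 0; the interval of miR-126a-3p runs from -0.50 to 0.38 and that of miR-206-3p from -3.01 to 1.63.

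The second question was whether the levels followed the replicate number, which runs from 1 to 7 in both groups. The number was tested as a factor of 7 levels, beside treatment. Among the 7 miRNAs 1 was called, miR-199a-3p, where 8.37% of all tested names (20 of 239) were called. An unadjusted p under 0.05 was found for 5 of the 7, against 25.5% of all tested names (61 of 239). DESeq2 called 5 of the 7 by number, and 46 of the 239 names.

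miR-199a-3p was close within a number and apart between numbers. Replicate 2 had 286 CPM with DMSO and 348 with 27HC, replicate 1 had 383 and 428, and replicate 4 had 471 and 436. Replicate 6 had 557.5 and 619.7, replicate 3 had 650 and 649, replicate 7 had 684 and 795, and replicate 5 had 938 and 809.7 CPM. The members of a number lay side by side, and 27HC was the higher in 4 of 7 numbers. On the log2 CPM scale the median difference within a number was 0.157, and the means of the numbers spanned 1.45 (F = 10.65, edgeR adjusted p 0.0151). The call was lost without DMSO replicate 6 (adjusted p 0.0531, edgeR) and without 27HC replicate 6 (0.0561). Without either of these libraries no name of the table was called by edgeR, with 50 and 41 names at an unadjusted p under 0.05.

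miR-126a-5p had a median difference within a number of 0.152 on the log2 CPM scale, and its number means spanned 1.09 (edgeR adjusted p 0.0618). Replicate 1 was its lowest number and replicate 5 its highest. For miR-1a-3p the difference within a number was larger, 1.05, and the span between numbers was 2.91 (edgeR adjusted p 0.0576), from replicate 3 to replicate 5. miR-143-3p spanned 2.07 between replicates 6 and 3, with 0.67 within a number (edgeR adjusted p 0.0975). For miR-206-3p the span was 3.59, from replicate 3 to replicate 2, and the adjusted p 0.0994 in edgeR. That span includes the high library DMSO replicate 2, but not the high library 27HC replicate 4. miR-126a-3p (span 0.894, adjusted p 0.396) and miR-133a-3p (span 1.47, adjusted p 0.325) had edgeR unadjusted p-values of 0.182 and 0.129. Replicate 5 was the highest number for 5 of these 7, namely miR-126a-3p, miR-126a-5p, miR-199a-3p, miR-1a-3p and miR-133a-3p. How many of all tested names were highest there was not counted, so this was not read as particular to these miRNAs. The libraries numbered 5 were shallow, with 112914 (DMSO) and 124574 (27HC) counts.

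**Figure D3:**
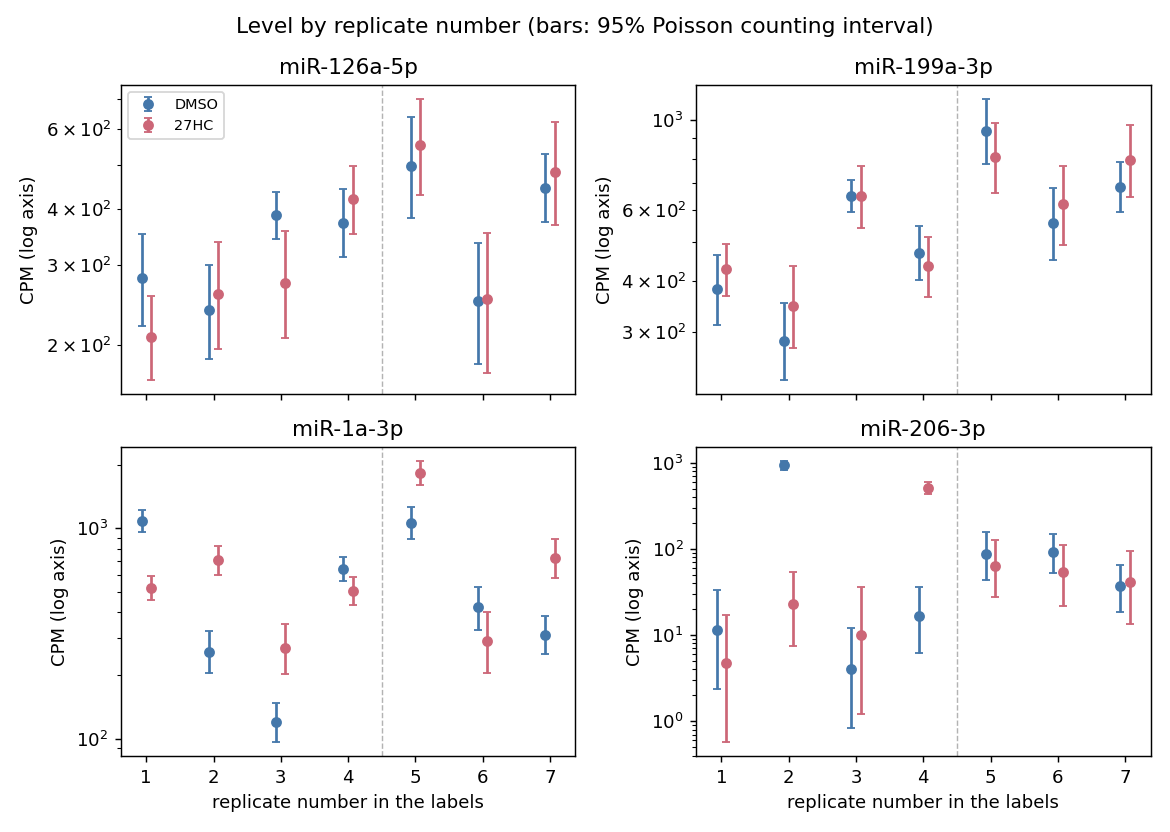
Level of 4 of the miRNAs by replicate number, in CPM on log axes, DMSO and 27HC side by side; bars are 95% Poisson counting intervals and the dashed line divides numbers 1 to 4 from 5 to 7. For miR-199a-3p the members of each number lie close together, from 286 and 348 CPM in replicate 2 to 938 and 809.7 CPM in replicate 5, whereas miR-206-3p has DMSO replicate 2 and 27HC replicate 4 alone at the top.

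The numbers fell into a lower set, 1 to 4 (8 libraries), and an upper set, 5 to 7 (6 libraries). The division was seen in these same counts, so the levels of the sets are given with no test between them. Median levels in the lower and the upper set were 432 and 740 CPM for miR-199a-3p, 278 and 465 CPM for miR-126a-5p, 29.1 and 45.7 CPM for miR-199a-5p, 19.9 and 52.6 CPM for miR-214-3p, and 37.1 and 64.9 CPM for miR-133a-3p. They were closer for miR-126a-3p (410 and 439 CPM), miR-143-3p (148.5 and 161 CPM) and miR-1a-3p (514 and 571 CPM). The ranges of the sets overlapped for each of these 8. The sets also differed in depth, as given above. The liver miRNA miR-122-5p held 0.197% to 0.316% of raw counts in the lower set and 0.332% to 0.543% in the upper. On TMM library sizes its ranges overlapped, at 1895 to 3307 CPM against 3175 to 4587 CPM. The 4 arms of miR-223 and miR-142a held 11.97% to 18.2% against 9.86% to 14.98%. How many of all tested names part between the sets was not counted. The part of depth and of these other miRNAs in the levels was not tested.

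Within the sets the treatment contrast again called none of the listed miRNAs. It called 0 of 7 in replicates 1 to 4, where 42 of 242 names were called, and 0 of 5 in replicates 5 to 7, where 12 of 198 were. The former 7 included miR-145a-5p and not miR-206-3p, which was tested in neither set. In replicates 1 to 4 miR-133a-3p had a log2 fold change of 0.70 and miR-145a-5p of -0.60 (edgeR adjusted p 0.421 and 0.349). Neither was tested in replicates 5 to 7. In the lower and the upper set miR-126a-3p had log2 fold changes of -0.30 and 0.38, miR-143-3p -0.30 and 0.41, miR-126a-5p -0.08 and 0.13, miR-199a-3p 0.11 and 0.04, and miR-1a-3p 0.02 and 0.69. The sign differed between the sets for the first 3 of these. An interaction of set and treatment passed the edgeR threshold for 0 of 239 names (24 at an unadjusted p under 0.05). Its lowest unadjusted p among the listed miRNAs was 0.0718, for miR-126a-3p (edgeR adjusted p 0.479). Because the sets were taken from these same counts, the calls and p-values by set are a description only. No conclusion about the sets was drawn from them.

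miR-206-3p stood apart in 2 libraries that share neither treatment nor number. DMSO replicate 2 held 279 counts (938 CPM, 95% Poisson interval 831 to 1055) and 27HC replicate 4 held 161 counts (509 CPM, interval 433 to 594). These intervals cover counting error only. The other 12 libraries held 2 to 16 counts, 4.09 to 91.0 CPM. So 84.8% of the counts of miR-206-3p (440 of 519) lay in 2 of 14 libraries, and the lower of them was 5.59-fold above the highest of the others. Without them the means were 41.4 ± 38.9 CPM with DMSO and 32.8 ± 24 CPM with 27HC (SD, n = 6 each). Both high libraries belong to replicates 1 to 4, so the sets overlapped, at 4.09 to 938 CPM against 36.9 to 91.0 CPM in replicates 5 to 7. Only with both left out was miR-206-3p at or below 23.2 CPM in replicates 1 to 4, on 2 to 6 counts. Replicates 5 to 7 held 5 to 16 counts. How many of all tested names part in this way was not counted.

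The other muscle miRNAs were not raised in the same 2 libraries. miR-1a-3p had 259 and 506 CPM there and miR-133a-3p had 20.2 and 25.3 CPM, below their medians over all libraries. miR-133b-3p, the neighbour of miR-206 on chromosome 1, had 1 and 1 counts, miR-133b-5p had 1 and 2, and miR-206-5p, the other strand of the miR-206 hairpin, had 0 and 0. Among the 239 tested names, miR-206-3p and miR-15a-5p, a widely expressed miRNA, were the 2 that exceeded all other libraries in both. That criterion was set after their values were seen. Across the tested names, the SD of log2 CPM within groups was highest for miR-206-3p, at 1.96, against a median of 0.406. miR-1a-3p ranked 17 of 239 by that SD (1.03) and miR-143-3p ranked 29 (0.822). miR-199a-3p (0.517), miR-126a-5p (0.473) and miR-126a-3p (0.393) ranked 86, 102 and 125.

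Relations among the miRNAs were described over the 14 libraries with Pearson's r of log2 CPM, which carry shared depth and set differences. For miR-1a-3p the names most like it were miR-1b-5p (r = 0.742), miR-133a-3p (r = 0.685) and let-7c-5p (r = 0.607). miR-1b-5p is a name related to miR-1 itself, so its likeness was not counted as that of a separate muscle miRNA. Within replicates 1 to 4 (n = 8) and 5 to 7 (n = 6), miR-1a-3p and miR-133a-3p had r = 0.752 and 0.546. For miR-206-3p, r was 0.0348 with miR-1a-3p and -0.153 with miR-133a-3p over all 14 libraries. These were -0.0594 and -0.339 in replicates 1 to 4, which hold both high libraries, and 0.341 and 0.399 in replicates 5 to 7. Its most similar names were miR-6982-5p (0.582), miR-5106 (0.505) and miR-9-5p (0.457).

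For miR-126a-3p the most similar names were miR-143-3p (r = 0.677), miR-17-5p (0.616) and miR-3065-5p (0.599), and r with miR-143-3p was 0.902 in replicates 1 to 4 and 0.513 in 5 to 7. miR-126a-3p and miR-126a-5p, from the same hairpin, had r = 0.52. miR-126a-5p was closest to miR-126b-3p (0.999, nearly equal counts) and to miR-199a-3p and its copy miR-199b-3p (0.688). miR-143-3p was closest to miR-20a-5p (0.74), miR-322-3p (0.707) and miR-126a-3p (0.677). miR-199a-3p was closest, after miR-199b-3p, to miR-196b-5p (0.75) and miR-152-3p (0.738), but within replicates 5 to 7 these were 0.115 and 0.0795. For miR-133a-3p they were miR-8117 (0.852), miR-466m-3p (0.815) and miR-6374 (0.791), on few counts.

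Ratios of counts within a library do not depend on its size. miR-126a-3p over miR-126a-5p ran from 0.677 to 2.01 and was above 1 in 10 of 14 libraries. miR-199a-3p exceeded miR-199a-5p by 9.7 to 29.2 in every library. It exceeded miR-214-3p by 8.45 to 60.3, the latter on 3 counts of miR-214-3p in 27HC replicate 1. The miR-199a-3p counts pool all hairpins of miR-199a and miR-199b, and only the miR-199a hairpin on chromosome 1 lies in Dnm3os with miR-214. miR-143-3p over miR-145a-5p ran from 1.25 (5 over 4 counts, 27HC replicate 6) to 13 (26 over 2 counts, DMSO replicate 5). The ratio of this transcribed pair was above 1 in all 14, but both ends lie on few counts. miR-1a-3p over miR-133a-3p ran from 4.22 to 28.8. miR-1a-3p over miR-206-3p ran from 0.276, in DMSO replicate 2, to 110, in 27HC replicate 1 on 2 counts of miR-206-3p. It was above 1 in 12 of 14.

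The names related to the 10, namely the other strands and copies of their hairpins and further heart and skeletal muscle miRNAs, numbered 22, of which 20 were in the table. Of these, 3 passed the filter. miR-199b-3p and miR-126b-3p repeat the values of miR-199a-3p and miR-126a-5p. miR-1b-5p had means of 118 CPM with DMSO and 167 CPM with 27HC (log2 fold change 0.54, SE 0.49, edgeR adjusted p 0.599), and it was called by replicate number (edgeR adjusted p 0.0164). The other 17 had at most 6 counts in any library. They include miR-133b-3p, with 20 counts over all libraries, and the heart muscle miRNAs miR-499-5p and miR-208a-5p, with 9 and 8.

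The shares of the lists show how the 10 compare with miRNAs of other sources. The endothelial names held 0.0790% ± 0.0206 of counts with DMSO and 0.0763% ± 0.0225 with 27HC (SD, n = 7 each, here and in this paragraph). The stromal names held 0.08495% ± 0.0321 and 0.0839% ± 0.0311, and the striated muscle names 0.0787% ± 0.0464 and 0.0846% ± 0.0560. These differences, of 0.0059 percentage points at most, were smaller than the SDs. The single liver miRNA miR-122-5p held 0.332% ± 0.113 with DMSO and 0.301% ± 0.0576 with 27HC, more than all 10 together in both means, and it was not called (log2 fold change -0.08, edgeR adjusted p 0.840).

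The erythroid names held 0.101% and 0.126%, with 0 of 2 tested names called, the neural names 0.132% and 0.145%, with 0 of 2 called, and the epithelial names 0.0399% and 0.0416%, with 0 of 3 called. miR-150-5p, a lymphocyte miRNA, held 0.0251% and 0.0127% and was called lower with 27HC (log2 fold change -0.97, edgeR adjusted p 0.0134). The 4 arms of miR-223 and miR-142a held 15.5% ± 2.97 with DMSO and 12.4% ± 0.512 with 27HC, and 2 of 4 were called lower, miR-142a-3p (log2 fold change -1.53, edgeR adjusted p 3.55e-05) and miR-142a-5p (-0.74, edgeR adjusted p 0.0223). No list member was at 0 in all libraries. The share of the 10 ran from 0.166% to 0.253% in replicates 1 to 4 and from 0.193% to 0.440% in replicates 5 to 7, where both libraries numbered 5 were the highest of their groups, at 0.392% and 0.440%.

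**Figure D4:**
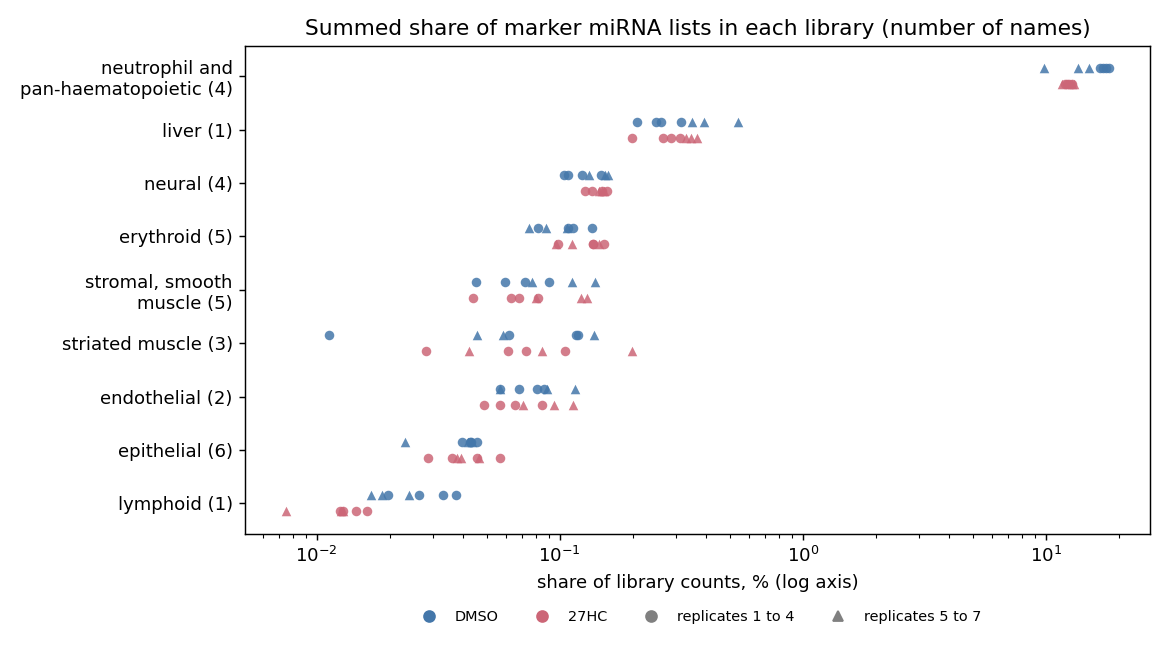
Summed share of each marker list in each library, in percent of the library's counts on a log axis, with the number of names in brackets; colour gives the treatment, circles replicates 1 to 4 and triangles replicates 5 to 7. The endothelial, stromal and striated muscle lists overlap between treatments, each below 0.2% of counts, while the 4 arms of miR-223 and miR-142a hold 9.86% to 18.2%.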

How the data were processed

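Small RNA from small extracellular vesicles was extracted by miRNeasy Micro and made into libraries by QIAseq miRNA kits, per the labels' protocols. The authors deposited raw counts, whole numbers for 1695 mature miRNA names in 14 libraries (7 with DMSO, 7 with 27HC). 0 rows and 0 columns were unmatched. The submitters' processing notes name GRCm39 (mm39), R 4.1.2, edgeR and limma, with no role given. The aligner, the counter, the rule for reads that match several names, the use of strand and of the kit's molecular identifiers are not given in the sources used here, so a count may be of reads or of molecules.

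The counts were tested with edgeR 4.0.16 in R 4.3.3 (TMM, filterByExpr at its minimum of 10 counts and 15 in total, quasi-likelihood F test) over all names. The model had treatment alone, and for the replicate number treatment plus a factor of 6 coefficients. P-values were adjusted after Benjamini-Hochberg with a threshold of 0.05. Standard errors were derived from the fold change and F. Log2 CPM used a prior count of 2. The scripts were tested on simulated data with 4-fold changes. The treatment test called 30 of 32 changed names that passed the filter. The replicate number test called 17 of 32 names changed in some of the numbers, so it missed more. DESeq2 1.42.0, limma-voom (limma 3.58.1), other scalings and filters, a covariate for the library total, a block for the replicate number, subsets of numbers and each library left out were alternatives. Leaving out both libraries high in miR-206-3p, and the share without miR-206-3p, were chosen after seeing the data.

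The 10 miRNAs, the related names and the marker lists were chosen with earlier results of these data known. All 10 are named with values, as are related names that passed the filter and, for each tested miRNA, the 3 names with the highest r. Hairpin positions came from GENCODE M21 (GRCm38.p6) and mature sequences from RefSeq (GRCm38.p6).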

Additional observations from a re-analysis of the deposited data

Results flagged for a closer look

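Each of 28 groups of 7 libraries (the 10 miRNAs and the list shares, by treatment) was examined for a highest or lowest library whose gap to its neighbour was large against the group's range. In 5 groups a library stood apart in this way. For independent groups of normal values about 1.4 (1 in 20) would do so. Low counts and shares summed over the same miRNAs do not meet that condition, so the 5 were not read as an excess. In DMSO replicate 2, miR-206-3p had 938 CPM, and the next DMSO library had 91.0 CPM. miR-206-3p also had 509 CPM in 27HC replicate 4, against 64.1 CPM in the next 27HC library. miR-1a-3p had 1844 CPM in 27HC replicate 5, the next being 722 CPM. miR-145a-5p had 136 CPM in the same library, on 17 counts, the next being 37.1 CPM. The share of counts of all 10 miRNAs was 0.392% in DMSO replicate 5, the next DMSO library having 0.246%.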

How the results depend on the processing

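No alternative brought a listed miRNA past the threshold for treatment: over 181 settings of a fold change 0 were past it, 36 changed sign, and the lowest adjusted p was 0.215. Same-numbered libraries had r of 0.0686 to 0.6 between their deviations from the group means, with 6 of 7 over 0.1, and 6 of 14 libraries correlated best with their own number, where pairing was taken to need all 7 over 0.1. Across treatments, libraries of different numbers had a mean r of 0.271 within replicates 1 to 4 or 5 to 7 and of -0.306 between these sets. The numbers were therefore not used as pairs, although the counts hint at likeness within a number. With the replicate block 37 names were called for treatment, and 0 of the listed miRNAs.

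The count for treatment was 12 with replicates 5 to 7 only (198 names tested) and 17 without both libraries high in miR-206-3p, and 21 to 34 with each library left out in turn. For the replicate number, the names called were 89 without the filter, 2 with a mean of at least 100 counts (110 names tested), 46 with DESeq2, 25 with library totals only, and 0 to 38 with each library left out. The listed miRNAs called by number were then 3 without the filter, 3 with library totals only, 5 with DESeq2, and 0 to 3 with each library left out. miR-199a-3p lost its call by number without the filter (adjusted p 0.136) and without both high libraries (0.0827). The cause was not tested.

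Sign changes of log2 fold changes, none past the threshold in its setting, were these. miR-126a-5p was 0.015 with RLE scaling, 0.011 with DESeq2 and 0.13 in replicates 5 to 7. miR-199a-3p was -0.013 with library totals only, -0.038 without the filter, -0.11 with the library total as covariate and -0.045 without both high libraries. miR-126a-3p was 0.045 with a mean of at least 100 counts and 0.38 in replicates 5 to 7. miR-143-3p was 0.057 with the covariate and 0.41 in replicates 5 to 7. miR-206-3p was 0.22 with limma-voom. With each library left out, the ranges were -0.17 to 0.11 (miR-126a-3p), -0.11 to 0.14 (miR-126a-5p), -0.22 to 0.21 (miR-143-3p), -0.10 to 0.26 (miR-199a-3p), -0.090 to 0.60 (miR-1a-3p), 0.22 to 0.71 (miR-133a-3p) and -2.44 to 1.54 (miR-206-3p). The cause was not tested. Depth limits miR-133a-3p, miR-145a-5p, miR-199a-5p and miR-214-3p, which had at most 41 counts in any library, and miR-206-3p, which had 2 to 16 in 12 of 14.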
